A study of Mus musculus with 12 samples.

Results

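The 30 genes described here encode enzymes and regulators of sterol and fatty acid synthesis, and they were followed in RNA-seq of mouse muscle stem cells (MuSCs) in 4 groups of 3 libraries. The genes were matched by symbol among the 55335 genes counted, all 30 were found, and all 30 were among the 22635 genes that passed the filter on low counts and were tested. They comprise 6 enzymes of the mevalonate and isoprenoid steps, 3 enzymes from squalene synthesis to lanosterol, 8 enzymes from lanosterol to cholesterol, 6 regulators and sterol carriers around the SREBP transcription factors, and 7 enzymes of fatty acid synthesis. The study asked how squeezing cultured MuSCs under a flat device changes their state. Cells were sorted by green fluorescence from hindlimb muscle of Pax7-ZsGreen mice of 3 to 6 months, a strain in which a Pax7-driven reporter marks MuSCs, and the labels name no other allele. F cells were freshly isolated and lysed at sorting. Uncompressed cells (2d-U and 5d-U) were grown for 2 and 5 days without compression on plastic coated with Matrigel and fibronectin, in medium with serum and FGF. 2+3d-C cells were grown for 2 days in the same way and for 3 further days under a compression pillar, a film on short pillars that limits cell height. Neither the labels nor the study's methods name the animals or batches behind single libraries, so the p-values below measure the spread between these libraries, which may in part be technical.

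In mammalian cells, cholesterol is built from acetyl-CoA through mevalonate, squalene and lanosterol, and fatty acids are built from the same acetyl-CoA by carboxylation, chain extension, elongation and desaturation. Most of these enzymes are transcribed under the SREBP factors, which sit in the endoplasmic reticulum as inactive precursors bound to SCAP. When sterols are scarce SCAP carries SREBP to the Golgi apparatus, where proteases release its active part, and when sterols are plentiful the INSIG proteins hold SCAP back. Growing cells need the products for new membranes, for prenyl groups on proteins and for coenzyme Q.

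The upstream sequences of 3 members are shown. Mvk had the largest fall with compression and Insig2 had the largest rise. Of the 24 members with a promoter entry, Hmgcs1 alone held the core of the sterol regulatory element in its window of 250 bases. Sequences of Hsd17b7, Srebf2 and Insig1 were also sought, but an annotated exon left too few bases to show. Sequences are from RefSeq on build GRCm38.p6 (mm10), read 5′ to 3′ on the strand of the gene and ending at the base before the annotated start. Each stops at the nearest annotated exon where there is one within 250 bases. Capitals mark matches on either strand to TCACNCCAC (the sterol regulatory element core), CACGTG (an E-box), CCAAT (the box bound by NF-Y) and GGGCGG (the box bound by Sp1). Hmgcs1 is shown from chr13:119690101-119690350 on the plus strand, Mvk from chr5:114444061-114444268 on the plus strand, and Insig2 upstream of a pair of its annotated starts, from chr1:121332590-121332839 and chr1:121328025-121328091 on the minus strand.
Hmgcs1: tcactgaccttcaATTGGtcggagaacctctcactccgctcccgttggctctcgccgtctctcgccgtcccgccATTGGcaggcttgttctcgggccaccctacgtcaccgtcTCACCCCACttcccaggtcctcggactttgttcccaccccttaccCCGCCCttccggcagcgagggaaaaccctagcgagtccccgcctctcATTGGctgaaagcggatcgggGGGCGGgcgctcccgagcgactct
Mvk: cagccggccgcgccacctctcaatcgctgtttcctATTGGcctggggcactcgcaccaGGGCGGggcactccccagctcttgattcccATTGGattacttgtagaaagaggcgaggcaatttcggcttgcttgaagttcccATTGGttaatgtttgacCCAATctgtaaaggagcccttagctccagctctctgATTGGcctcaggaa
Insig2, outer start: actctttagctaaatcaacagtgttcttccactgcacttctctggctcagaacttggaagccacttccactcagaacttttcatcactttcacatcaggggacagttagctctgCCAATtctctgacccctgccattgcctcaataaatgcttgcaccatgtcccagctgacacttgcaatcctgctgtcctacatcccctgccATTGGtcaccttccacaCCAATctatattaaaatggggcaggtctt
Insig2, inner start: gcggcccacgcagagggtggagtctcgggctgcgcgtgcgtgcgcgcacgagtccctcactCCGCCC

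In the Hmgcs1 sequence the sterol regulatory element core begins 137 bases before the start, with 3 CCAAT matches and 2 GGGCGG matches around it. The Mvk sequence holds 5 CCAAT matches and 1 GGGCGG match in 208 bases, and it ends upstream at the exon of Mmab, which is transcribed in the opposite direction. The outer Insig2 sequence holds 3 CCAAT matches and none of the other motifs, and the inner one, of 67 bases, holds 1 GGGCGG match. Counts per gene do not say which Insig2 start was used. Over the whole 250 bases before each start, 24 of the 30 members had an entry (Fdps, Fdft1, Stard4, Scd1, Scd2 and Sqle had none). CCAAT was present in 20 of these 24 members (83.3%), against 37.5% of all 27025 genes with an entry, and GGGCGG in 20 of 24 (83.3%), against 35.4%. CACGTG was present in 5 of 24 (Dhcr7, Hsd17b7, Insig1, Sc5d and Scap), against 6.86% of all genes, and TCACNCCAC in 1 of 24, against 1.22%. These shares are descriptions of letters in a fixed window. The 27025 genes include genes that were not tested here, whereas all members were, and shares over tested genes alone were not computed.

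Reads counted on genes ran from 12540745 (2+3d-C replicate 5) to 62424851 (2+3d-C replicate 4). In 4 libraries (5d-U replicates 1 and 6, F replicates 4 and 5) reads also lay on olfactory receptor and similar silent gene families at 0.635 to 7.13 reads per kb, against 0.00937 to 0.22 in the other 8. Markers of MuSCs and myoblasts, such as Pax7, Myf5 and Myod1, were detected in all groups and summed to 16300 to 17400 CPM (counts scaled to library depth) in 2+3d-C against 2580 to 7140 in the other groups. Of the 2+3d-C sum, Myod1 had 4160 to 8460 CPM, Sdc4 3180 to 6310, Vcam1 1570 to 3350, Myf5 191 to 371 and Pax7 60.6 to 88.3. The lists of other cell types, mature myofiber aside, reached their highest sums in F, and several also exceeded, in 2+3d-C, their level in either uncompressed culture. The 10 endothelial markers summed to 338 to 394 CPM across 2+3d-C, 2.93 to 43.1 across 5d-U, 5.92 to 7.15 across 2d-U and 1500 to 2510 across F. The 10 adipocyte markers, of which 5 were tested, summed to 80.1 to 240 CPM across 2+3d-C, 11.1 to 19.2 across 5d-U, 3.61 to 4.35 across 2d-U and 430 to 1230 across F. Fabp4, which endothelial cells also express, had 65.2 to 227 CPM of that sum across 2+3d-C and 354 to 1180 across F, against 0.349 to 4.35 across 5d-U and 0.666 to 0.737 across 2d-U. In 2+3d-C Adipoq was at most 0.0563 CPM (0.087 in 5d-U), Plin1 at most 0.0188 (0.261) and Adrb3 at most 0.121 (0.244). Cidec, Lep and Retn were at 0 in all 3 libraries of 2+3d-C, and at most 0.342, 0.348 and 0.174 in 5d-U. Pparg had 1.81 to 7.36 CPM (4.74 to 16.4 in 5d-U). Lipe had 4.71 to 8.38 CPM (0.628 to 0.913 in 5d-U) and Cfd up to 6.64 (at most 0.0489 in 5d-U). Of the 5 tested adipocyte markers, 2 rose in 2+3d-C relative to 5d-U and 0 fell. Their log2 fold changes ran from -5.58 to 6.93, and 3 were positive. In bulk RNA, fewer cells of a type and less RNA per cell cannot be told apart.

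Levels of the members are given as RPKM (reads scaled to exon length and to library depth), with library sizes scaled by TMM, and are listed by replicate number (1, 4 and 5 for F, 1, 2 and 3 for 2d-U, 1, 2 and 6 for 5d-U, 4, 5 and 10 for 2+3d-C). By group mean, 13 of the 30 members were highest in 5d-U and 8 in 2+3d-C, while F led for 6 and 2d-U for 3. Of the 17 enzymes from Hmgcs1 to Dhcr7, 13 had their highest mean in 5d-U, namely 5 of 6 mevalonate and isoprenoid enzymes, 2 of 3 squalene and lanosterol enzymes and 6 of 8 later enzymes. None of the 13 regulators and fatty acid enzymes was highest in 5d-U, whereas 6 of them were highest in 2+3d-C and 5 in F.

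The 5d-U and 2+3d-C libraries varied more among themselves than the 2d-U libraries. The highest library of a group was a median of 1.39 times the lowest in 2d-U, 1.76 times in F, 3.13 times in 5d-U and 2.56 times in 2+3d-C, the last over the 27 members with reads in every library of the group. A ratio above 3 was seen for 1 member in 2d-U, 6 members in F, 19 members in 5d-U and 11 members in 2+3d-C. In 5d-U, replicate 1 was the lowest library for 22 of 30 members, and replicates 2 and 6 were the highest for 13 and 14. Replicate 1 of 5d-U also had 5.85% of its reads on mitochondrial genes, against 0.0681% to 1.15% in the other 11 libraries, and the part of this in its values was not tested. In 2+3d-C, replicate 4 was the highest for 17 members. Mvk, Tm7sf2 and Dhcr7 each had a 2+3d-C library without a read.

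**Figure D1:**
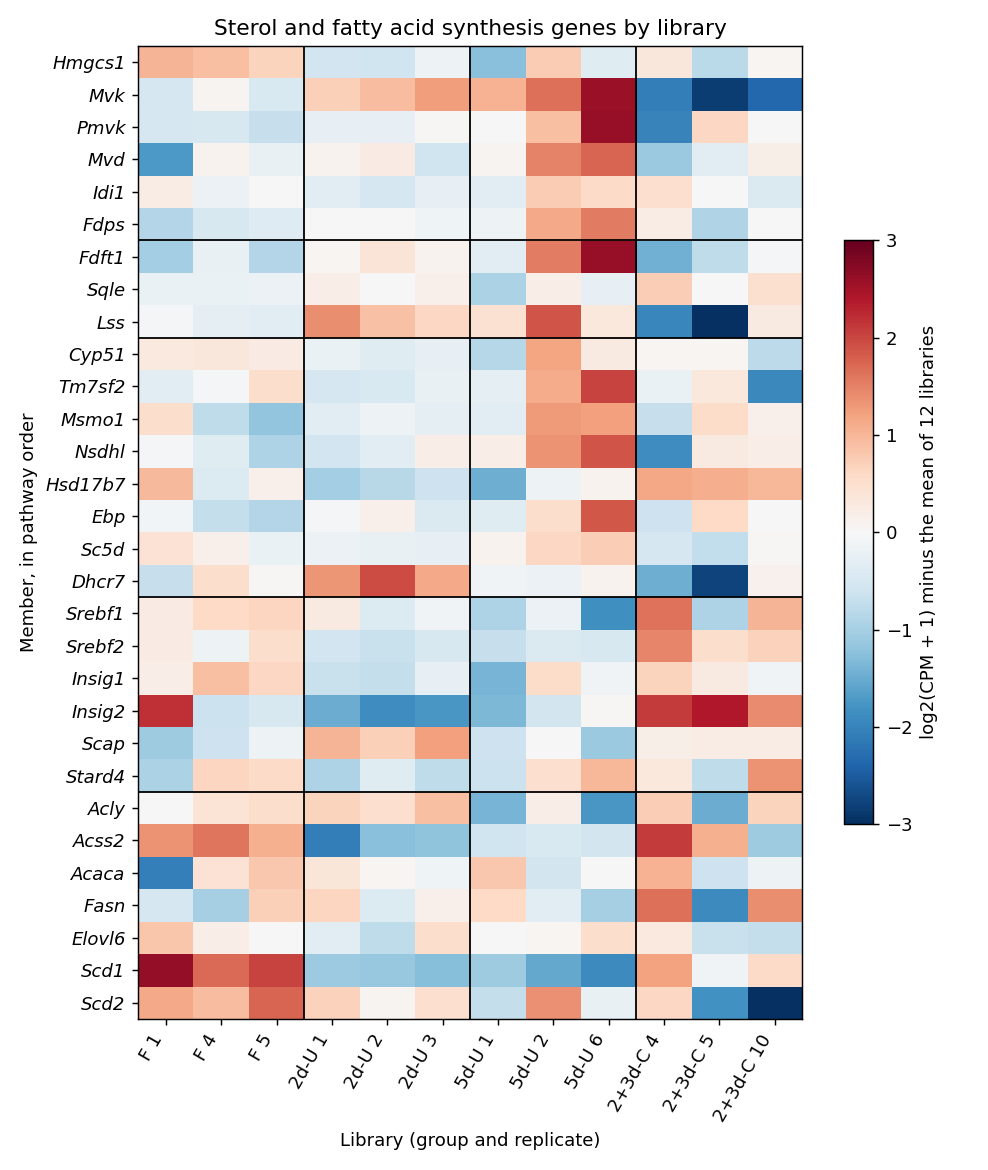
Level of each of the 30 members (rows, in pathway order with lines between roles) in each of the 12 libraries (columns), as log2(CPM + 1) minus the mean of the 12 libraries, with colours ending at 3 in both directions. Most enzymes from Mvk to Ebp are red in 5d-U replicates 2 and 6 and paler or blue in replicate 1, whereas Insig2 and Hsd17b7 are red in all 3 libraries of 2+3d-C and Scd1 in all 3 of F.

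Compression was first set against culture of the same length. In 2+3d-C against 5d-U, 5 members rose, against 9.14% of all tested genes, and 2 fell, against 13.4%. The risers were Insig2, Srebf2, Srebf1, Hsd17b7 and Scd1, and the fallers were Mvk and Fdft1. The median log2 fold change of the members was -0.44, beside -1.05 over all tested genes and -0.06 over the 10766 genes that averaged 5 CPM or more. A positive value was seen for 13 of the 30 members, 8161 of the 22635 tested genes and 5239 of those 10766. These shares also stand beside the signs given by role below. By role the median was 1.12 for the 6 regulators and 0.99 for the 7 fatty acid enzymes, and it was -1.55, -2.22 and -0.90 for the mevalonate, squalene and later sterol enzymes. The endothelial and adipocyte sums given above move with this comparison, as do other marker lists. Markers of fibroadipogenic progenitors summed to 702 to 1150 CPM across 2+3d-C and 11.9 to 199 across 5d-U. All 10 had a positive log2 fold change, with 4 called higher and 0 lower. Of them, Dcn had 154 to 439 CPM across 2+3d-C and 1.01 to 40.3 across 5d-U, Dpt 206 to 376 and at most 0.245, and Cd34 153 to 240 and 2.79 to 136. Glial markers summed to 371 to 1200 CPM across 2+3d-C and 13.5 to 47.3 across 5d-U, smooth muscle and pericyte markers to 454 to 819 and 68.1 to 746, and erythroid markers to 27.4 to 318 and 0.14 to 1.13. Of the smooth muscle and pericyte sum, Acta2 had 132 to 276 CPM across 2+3d-C and 45.2 to 716 across 5d-U. Notch3, which the study measures in MuSCs, had 78.2 to 458 and 1.65 to 10.4. The mature myofiber sum went the other way, at 103, 224 and 111 CPM across 2+3d-C and 169, 2010 and 3680 across 5d-U. Of its 10 genes, 4 were called lower and 1 higher, 4 had a positive log2 fold change, and the median was -2.62. Acta1 had 24.4 to 119 CPM across 2+3d-C and 151 to 1450 across 5d-U, and Mylpf 4.93 to 22.8 and 4.91 to 1070. In contrast, Pvalb had 4.98 to 11.7 and 0.14 to 0.734, and Ckm 8.38 to 17.1 and 0.391 to 9.64. The part of these cells in the results was not tested. Leaving out the 4 libraries with silent-family reads keeps 5d-U replicate 2 as the only 5d-U library, and then Mvk (-5.74, adjusted p = 0.0491) and Insig2 (2.60, 0.0426) kept their calls. Fdft1 (-2.23, 0.0955), Srebf2 (1.41, 0.187), Scd1 (2.38, 0.148), Hsd17b7 (1.26, 0.275) and Srebf1 (1.10, 0.569) did not.

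Among the regulators, Insig2 (ENSMUSG00000003721.14, chr1:121304353-121332589) rose most. INSIG2 retains SCAP and SREBP in the endoplasmic reticulum when sterols are plentiful. Its level was 116, 16.1 and 17.8 RPKM across F, 8.78, 6.77 and 7.32 across 2d-U, 9.68, 17 and 25.7 across 5d-U, and 108, 134 and 67.6 across 2+3d-C. Every 2+3d-C library was thus above every library of both uncompressed cultures, whereas F overlapped 2+3d-C through F replicate 1 alone. The difference from 5d-U was a log2 fold change of 2.56 ± 0.681 (SE), or 5.91-fold (adjusted p = 0.015). Without 5d-U replicate 1 it was 2.27 with an adjusted p of 0.0521. Its paralogue Insig1, itself a well-known SREBP target, measured 17.4, 28.4 and 23.1 RPKM across F, 9.34, 8.99 and 12.6 across 2d-U, 5.48, 22 and 13.9 across 5d-U, and 24.1, 18 and 13.8 across 2+3d-C. The Insig1 ranges of 5d-U and 2+3d-C overlapped, and its log2 fold change was 0.43 ± 0.485 (adjusted p = 0.498).

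Both SREBP genes rose. Srebf2 (ENSMUSG00000022463.8, chr15:82147181-82205379), which encodes the factor that acts mainly on sterol genes, had 26.1, 19.7 and 31.8 RPKM across F, 14.6, 13.8 and 15.5 across 2d-U, 13.4, 16 and 15.7 across 5d-U, and 60.3, 31.8 and 35.5 across 2+3d-C. The lowest 2+3d-C library was above the highest library of either uncompressed culture. The log2 fold change against 5d-U was 1.5 ± 0.369 (adjusted p = 0.00978), and without 2+3d-C replicate 4 it was 1.11 (adjusted p = 0.0637). Srebf1 (ENSMUSG00000020538.15, chr11:60199089-60222581), whose products act mainly on fatty acid genes, had 8.45, 10.8 and 11 RPKM across F, 8.55, 5.24 and 6.52 across 2d-U, 3.6, 6.24 and 1.84 across 5d-U, and 22, 3.6 and 14.5 across 2+3d-C. Here 2+3d-C replicate 5 lay within the 5d-U range and the other 2 lay above it. The log2 fold change was 1.78 ± 0.60 (adjusted p = 0.0452). It was 1.21 (adjusted p = 0.172) without 2+3d-C replicate 4, and the call was also lost on leaving out 2+3d-C replicate 10, 5d-U replicate 1 or 5d-U replicate 6, without TMM (1.62, adjusted p = 0.0901) and in the fit of the 2 groups alone (1.92, 0.0833). It was lost too without any 2d-U library (adjusted p = 0.0543 to 0.0562) and without F replicate 4 (0.0611) or 5 (0.0608), none of which is in either group. Of the exon length of Srebf1, 3.11% is shared with other annotated genes.

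The remaining regulators were not called. Scap, which escorts SREBP, had 3.45, 5.42 and 2.4 RPKM across 5d-U and 6.13, 6.35 and 6.28 across 2+3d-C, a log2 fold change of 0.73 ± 0.425 (adjusted p = 0.182). Stard4, a cytosolic sterol carrier, had 1.92, 4.48 and 6.38 RPKM across 5d-U and 3.93, 1.75 and 8.11 across 2+3d-C (log2 fold change 0.11, adjusted p = 0.907). All 6 regulators had a positive log2 fold change, from 0.11 to 2.56. Their CPM summed to 1070, 826 and 706 across 2+3d-C, 204, 342 and 309 across 5d-U, 304, 259 and 318 across 2d-U, and 718, 400 and 486 across F.

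Mvk had the lowest log2 fold change of the 30 members. It encodes mevalonate kinase, which phosphorylates mevalonate (ENSMUSG00000041939.14, chr5:114444269-114460591). Its level was 1.52, 2.51 and 1.6 RPKM across F, 4.05, 4.8 and 6.05 across 2d-U, 5.24, 8.15 and 16 across 5d-U, and 0.266, 0 and 0.154 across 2+3d-C. The 2+3d-C values rested on 38, 0 and 9 reads, against 322, 625 and 874 reads in 5d-U, and lay below every library of every other group. Relative to 5d-U the log2 fold change was -5.96 ± 0.951, or 62.4-fold lower (adjusted p = 0.000617), and over the 6 fits that left out 1 library of either group it stayed between -6.78 and -5.31 with adjusted p-values up to 0.00495. Mmab, whose nearest exon lies 208 bases upstream of the Mvk start and which was looked up after the Mvk values were seen, had 2.44, 4.03 and 6.4 RPKM across 5d-U and 0.818, 1.12 and 0.0125 across 2+3d-C. Those groups did not overlap, and the log2 fold change of Mmab was -2.74 ± 1.05 (adjusted p = 0.0712).

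None of the other 5 mevalonate and isoprenoid enzymes was called, and all had a negative log2 fold change. Pmvk, the kinase after mevalonate kinase, had 9.32, 18.1 and 60.2 RPKM across 5d-U and 1.92, 14.8 and 9.26 across 2+3d-C (log2 fold change -1.76 ± 0.739, adjusted p = 0.0913). Mvd, which makes isopentenyl diphosphate, had 6.71, 18.8 and 22.5 RPKM across 5d-U and 2.63, 5 and 7.23 across 2+3d-C (-1.69 ± 0.697, adjusted p = 0.0868). Fdps, the farnesyl diphosphate synthase, had -1.41 (adjusted p = 0.189), and 26.7% of its exon length is shared with another annotated gene. Idi1, the isomerase of isopentenyl diphosphate, had -0.37. Hmgcs1, the HMG-CoA synthase whose upstream sequence is shown above, had 3.58, 15.1 and 6.74 RPKM across 5d-U and 11.1, 4.92 and 9.1 across 2+3d-C, with a log2 fold change of -0.02 ± 0.508 (adjusted p = 0.984).

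Fdft1 (ENSMUSG00000021273.11, chr14:63145150-63179578), the squalene synthase that commits farnesyl diphosphate to sterols, fell. It had 3.64, 6.43 and 4.03 RPKM across F, 7.89, 9.94 and 8.14 across 2d-U, 6.03, 22.4 and 47.6 across 5d-U, and 2.62, 4.34 and 7.41 across 2+3d-C. The 5d-U libraries spanned 7.89-fold, the widest range of any member in that group, and replicate 1 lay within the 2+3d-C range. The log2 fold change was -2.40 ± 0.64 (adjusted p = 0.015), but it was -1.54 (adjusted p = 0.11) without 5d-U replicate 6 and -2.20 (adjusted p = 0.0566) without 2+3d-C replicate 4. Its order over the 5d-U libraries was that of the mature myofiber sums (169, 2010 and 3680 CPM). It was also that of the proliferation marker sums (2330, 3390 and 3830 CPM). An order of 3 libraries is easily shared, and the part of either was not tested. Of its exon length 18.8% is shared with Ctsb, and the counting did not use strand. Sqle, the squalene epoxidase and a rate-limiting enzyme of the pathway, had 8.82, 19.7 and 14.4 RPKM across 5d-U and 28.7, 16.8 and 23.9 across 2+3d-C (log2 fold change 0.70 ± 0.381, adjusted p = 0.159). Lss, which closes the rings to give lanosterol, had 1.17, 3.32 and 1.06 RPKM across 5d-U and 0.148, 0.0112 and 1.02 across 2+3d-C (-2.22 ± 1, adjusted p = 0.107).

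Of the 8 enzymes from lanosterol to cholesterol, Hsd17b7 alone was called and alone had a positive log2 fold change. HSD17B7 reduces the ketone left by removal of the methyl groups at carbon 4 (ENSMUSG00000026675.12, chr1:169949535-169969241). It had 13, 4.9 and 7.31 RPKM across F, 3.14, 3.63 and 4.18 across 2d-U, 2.27, 5.94 and 7.11 across 5d-U, and 15, 14.3 and 13.4 across 2+3d-C. All 3 compressed libraries lay above every other library. The log2 fold change was 1.48 ± 0.498 (adjusted p = 0.0455), and in each of the 6 fits that left out 1 library of either group the adjusted p was over 0.05, at most 0.14, with log2 fold changes of 1.12 to 1.86. The Hsd17b7 call was also lost without the filter (adjusted p = 0.0542) and in the fit of the 2 groups alone (0.0783). It was lost too without any 2d-U library (0.0582 to 0.059) and without F replicate 4 (0.0503) or 5 (0.0643), none of which is in either group. The enzymes around it in the pathway had Msmo1 -0.80, Nsdhl -1.57, Cyp51 -0.61, Tm7sf2 -1.99, Ebp -0.91, Sc5d -0.90 and Dhcr7 -1.07 as log2 fold changes, with adjusted p-values from 0.0966 (Nsdhl) to 0.426 (Dhcr7). Nsdhl, which works in the same demethylation of carbon 4, had 5.59, 12.8 and 18.7 RPKM across 5d-U and 1.07, 5.84 and 5.59 across 2+3d-C.

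Among the fatty acid enzymes Scd1 rose. SCD1 is a stearoyl-CoA desaturase, which makes monounsaturated fatty acids (ENSMUSG00000037071.3, chr19:44394455-44407879). Its level was 25.7, 13.5 and 17 RPKM across F, 1.77, 1.71 and 1.51 across 2d-U, 1.78, 1.23 and 0.9 across 5d-U, and 9.41, 3.68 and 6 across 2+3d-C. The groups formed steps without overlap, with F highest, 2+3d-C between, and both uncompressed cultures low. Against 5d-U the log2 fold change was 2.29 ± 0.492, or 4.89-fold (adjusted p = 0.00432), and it stayed between 1.87 and 2.66, with adjusted p-values up to 0.0263, when any library of either group was left out. The adipocyte sum also falls from F through 2+3d-C to the uncompressed cultures, and its members, which did not all move that way, are given above. The part of adipocytes in the Scd1 values was not tested. Its neighbour Scd2 (chr19:44293674-44306864), a second stearoyl-CoA desaturase gene, had 3.86, 17.1 and 5.59 RPKM across 5d-U and 10.1, 1.72 and 0.159 across 2+3d-C (log2 fold change -1.14 ± 0.928, adjusted p = 0.341), and replicate 10 of 2+3d-C had 19 reads where replicate 4 had 2938.

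The other fatty acid enzymes were not called. Acss2, which makes acetyl-CoA from acetate, had 0.278, 0.319 and 0.289 RPKM across 5d-U and 2.34, 1.11 and 0.175 across 2+3d-C (2.03 ± 0.868, adjusted p = 0.0949). Fasn, the fatty acid synthase, had 6.78, 3.56 and 2.19 RPKM across 5d-U and 14.2, 1.13 and 12 across 2+3d-C (1.12 ± 0.737, adjusted p = 0.238). Acly, which makes acetyl-CoA from citrate, had a log2 fold change of 0.99 (adjusted p = 0.185), Acaca, the acetyl-CoA carboxylase, 0.10, and Elovl6, which elongates palmitate, -0.52 (adjusted p = 0.478). In Srebf1, Fasn, Acly and Scd2 replicate 4 of 2+3d-C was at least 4 times replicate 5, the library with the fewest reads.

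**Figure D2:**
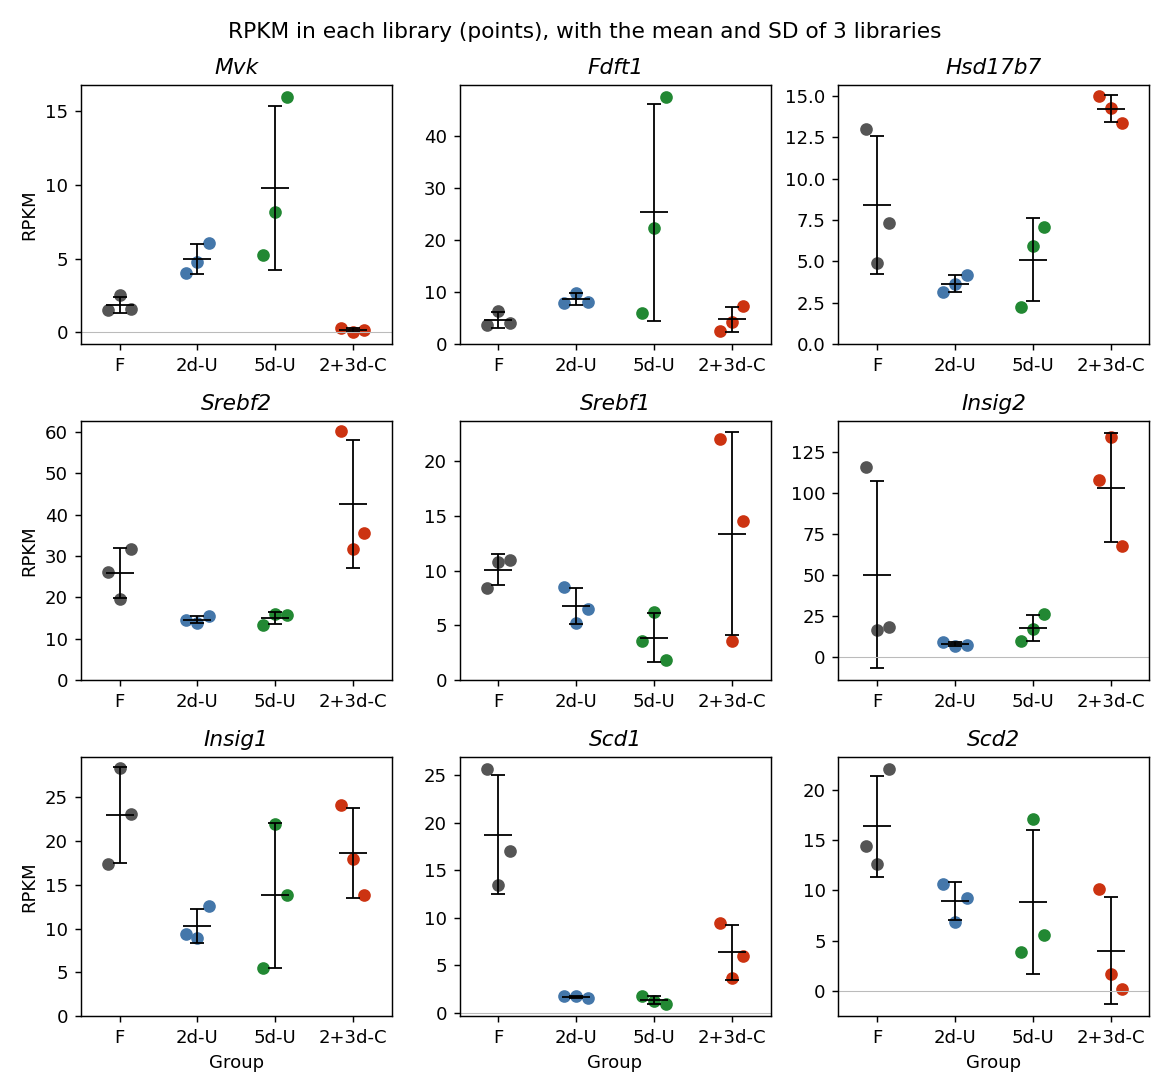
RPKM of 9 members in each library (points, ordered by replicate number) with the mean and SD of 3 libraries per group (bar and whiskers), on linear axes that differ between panels. All 3 libraries of 2+3d-C lie below all others for Mvk and above all others for Hsd17b7, and F replicate 1 stands at 116 RPKM for Insig2 while the other F libraries are at 16.1 and 17.8.

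Compressed cells were next compared with the 2d-U cells, which stood at the time when the device was added. In 2+3d-C against 2d-U, 5 members rose, against 16% of all tested genes, and 1 fell, against 8.63%. The risers were Insig2 (log2 fold change 3.76 ± 0.718, or 13.5-fold, adjusted p = 0.00185), Acss2 (3.47 ± 0.921, 0.014), Hsd17b7 (1.96 ± 0.505, 0.0119), Scd1 (1.94 ± 0.485, 0.0101) and Srebf2 (1.54 ± 0.37, 0.00801), where each number after the SE is the adjusted p. Mvk was 31.6-fold lower (-4.98 ± 0.911, adjusted p = 0.00136). Insig2 and Mvk kept their calls whichever of the 6 libraries was left out. Without 2+3d-C replicate 4 Srebf2 was at 1.05 (adjusted p = 0.0709), Scd1 at 1.4 (0.0619) and Acss2 at 2.36 (0.0786). Without 2d-U replicate 1 Hsd17b7 was at 1.86 (adjusted p = 0.0516) and Acss2 at 3.05 (0.0567). Without TMM Srebf2 was at 0.97 (adjusted p = 0.0735) and Scd1 at 1.4 (0.0668). Without the 4 libraries with silent-family reads, none of which is in either group, Acss2 alone lost its call (3.46, adjusted p = 0.0874).

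Acss2 (chr2:155517948-155585724) had 1.36, 1.64 and 1.1 RPKM across F, 0.0372, 0.143 and 0.148 across 2d-U and 2.34, 1.11 and 0.175 across 2+3d-C. The lowest 2+3d-C library was just above the highest 2d-U library, and 9.12% of the exon length is shared with other annotated genes. The 24 members that were not called had log2 fold changes between -2.80 (Dhcr7, adjusted p = 0.0735) and 1.28 (Stard4, adjusted p = 0.174). Dhcr7, which makes the final reduction to cholesterol in the Kandutsch-Russell branch, had 2.78, 4.42 and 2.4 RPKM across 2d-U and 0.255, 0 and 1.11 across 2+3d-C, so the groups did not overlap. The member median was 0.13, beside 0.00 over all tested genes and 0.20 over those with at least 5 CPM. The fits against 2d-U and against 5d-U share the 2+3d-C libraries.

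**Figure D3:**
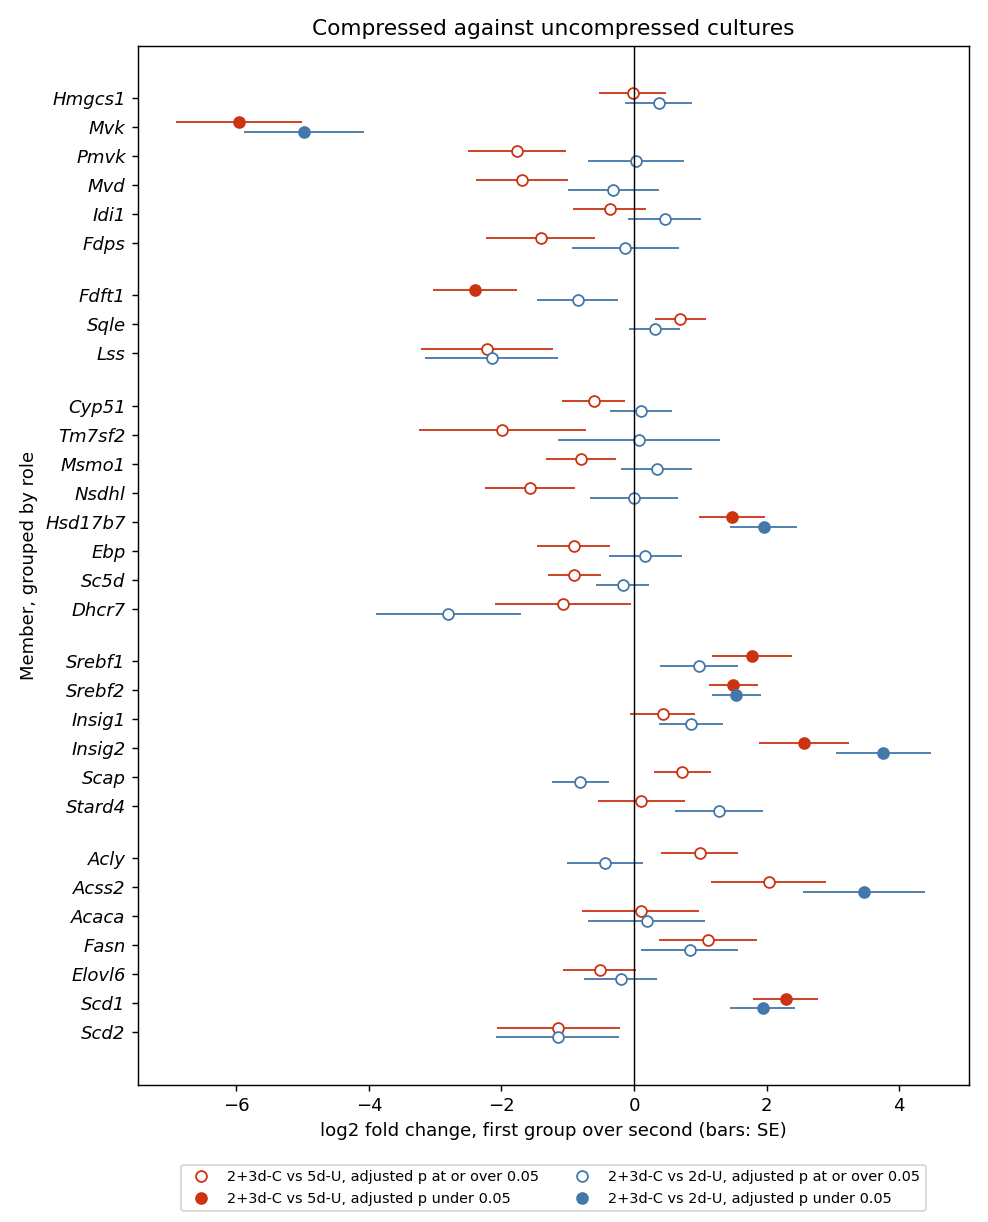
Log2 fold change (points) with its SE (bars) of each member in 2+3d-C against 5d-U (red) and against 2d-U (blue), grouped by role, with filled points where the edgeR adjusted p was under 0.05. Mvk stands alone at -5.96 and -4.98, and the SREBP regulators Insig2 and Srebf2 lie to the right in both comparisons.

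Against fresh cells 1 member was called in the compressed cells. In 2+3d-C against F no member rose, against 1.94% of all tested genes, and Mvk fell, against 4.47%. At an unadjusted p under 0.05 the counts were 0 and 2, against 8.11% and 28.7% of all tested genes, and DESeq2 called 0 higher and 2 lower (Mvk and Scd1). Mvk was 12-fold lower than in F (log2 fold change -3.58 ± 0.858, adjusted p = 0.0296), without overlap of the libraries. This call was lost without 2+3d-C replicate 10 (adjusted p = 0.0711), F replicate 4 (0.0928) or F replicate 5 (0.0666), in the fit of these 6 libraries alone (0.141), and without the 4 libraries with silent-family reads (0.552). Insig2, which overlapped through F replicate 1 (above), had a log2 fold change of 1.05 ± 0.65 (adjusted p = 0.256) and was called higher without that library. Scd1 was below every F library in every 2+3d-C library, with a log2 fold change of -1.55 ± 0.479 (adjusted p = 0.0628). Scd2 had -2.03 ± 0.951 (adjusted p = 0.136) and Hmgcs1 -0.96 ± 0.512 (adjusted p = 0.185), and for both the libraries did not overlap. Cyp51 was also lower without overlap, at 16.7 RPKM or more across F and 14.6 or less across 2+3d-C. Higher without overlap were Hsd17b7, Scap and Sqle. They had at most 13, 4.8 and 15.1 RPKM across F and at least 13.4, 6.13 and 16.8 across 2+3d-C, and were not called. The log2 fold changes of the other members lay between -1.17 (Dhcr7) and 1.11 (Fasn), and the median was 0.08, beside -0.76 over all tested genes and 0.19 over those with at least 5 CPM.

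The uncompressed cultures were then compared with fresh cells. In 5d-U against F, 3 members rose, against 11.6% of all tested genes, and 1 fell, against 8.9%. The risers were Mvk and Pmvk, the consecutive kinases (log2 fold changes 2.38 ± 0.799 and 2.23 ± 0.75, adjusted p = 0.0474 and 0.048), and Fdft1 (2.43 ± 0.639, adjusted p = 0.0136). Every 5d-U library of Mvk and Pmvk was above every F library, while for Fdft1 5d-U replicate 1 (6.03 RPKM) was below F replicate 4 (6.43). Without 5d-U replicate 6 none of the 3 was called (Mvk 1.94, adjusted p = 0.214, Pmvk 1.24, 0.336, Fdft1 1.71, 0.083), and the calls of Mvk and Pmvk were lost in 5 of the 6 fits that left out 1 library. Replicate 6 of 5d-U had a sum of 3680 CPM on the mature myofiber list, against 2010 in 5d-U replicate 2 and 169 in replicate 1. F replicates 4 and 5 had 3040 and 2030 CPM and F replicate 1 had 47.9. The sums differed in make-up. Mylpf reached 1070 CPM in 5d-U and 91.2 in F, Tnnt3 979 and 433, and Acta1 1450 and 1720. Ckm reached 9.64 CPM in 5d-U and 232 in F, Myh4 0.652 and 111, and Pvalb 0.734 and 117. The sums thus need not mark the same cells, and the part of such cells in these values was not tested. Scd1 was 14.4-fold lower in 5d-U than in F (log2 fold change -3.84 ± 0.525, adjusted p = 0.000276) and stayed between -4.13 and -3.36, with adjusted p-values up to 0.00293, on leaving out any library of either group. DESeq2, whose scaling moved the median of all genes by -0.40, called 4 members higher and 9 lower. Without the 4 libraries with silent-family reads, which leaves 1 library in each group, none of the 4 calls was kept (Scd1 -4.39, adjusted p = 0.0887, Fdft1 2.62, 0.242, Mvk 2.42, 0.619, Pmvk 1.49, 0.684).

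In 2d-U against F, 1 member rose, against 10.6% of all tested genes, and 4 fell, against 33.3%. Scd1 was 11.2-fold lower (-3.49 ± 0.516, adjusted p = 0.000319), Acss2 12.5-fold lower (-3.64 ± 0.928, adjusted p = 0.0092) and Hmgcs1, which shares 12.1% of its exon length with another annotated gene, 2.52-fold lower (-1.33 ± 0.516, adjusted p = 0.0492). Scd1 and Acss2 kept their calls whichever of the 6 libraries was left out, and Hmgcs1 lost its call in every such fit. Insig2 fell by 2.71 on the log2 scale (SE 0.686, adjusted p = 0.00889), and without F replicate 1 the value was -0.86 (adjusted p = 0.136). Scap (chr9:110333288-110384950) rose. It had 2.5, 3.46 and 4.8 RPKM across F, 11.1, 8.89 and 12.8 across 2d-U, 3.45, 5.42 and 2.4 across 5d-U, and 6.13, 6.35 and 6.28 across 2+3d-C. The 2d-U libraries were above all others, and the log2 fold change over F was 1.61 ± 0.432 (adjusted p = 0.012). Without the 4 libraries with silent-family reads, which leaves F replicate 1, Scd1 (-3.95, adjusted p = 0.0103) and Insig2 (-3.92, 0.00286) kept their calls, and Scap (2.13, 0.0635), Acss2 (-3.63, 0.144) and Hmgcs1 (-1.48, 0.157) did not. Of the exon length of Scap, 13.2% is shared with another annotated gene.

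Against F the member medians were 0.05 in 5d-U and -0.21 in 2d-U, beside -0.41 and -1.63 over all tested genes and 0.27 and 0.09 over those with at least 5 CPM. In 5d-U the role medians ran from 1.90 in the mevalonate and isoprenoid enzymes through 1.4 and 0.77 in the squalene and later sterol enzymes to -0.76 in the regulators and -0.89 in the fatty acid enzymes. F had the highest sums of fibroadipogenic progenitor, endothelial and immune markers. They were 2500 to 6500 CPM for fibroadipogenic progenitor markers, 1500 to 2510 for endothelial markers and 720 to 2010 for immune markers. The part of these cells in the values of F was not tested.

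**Figure D4:**
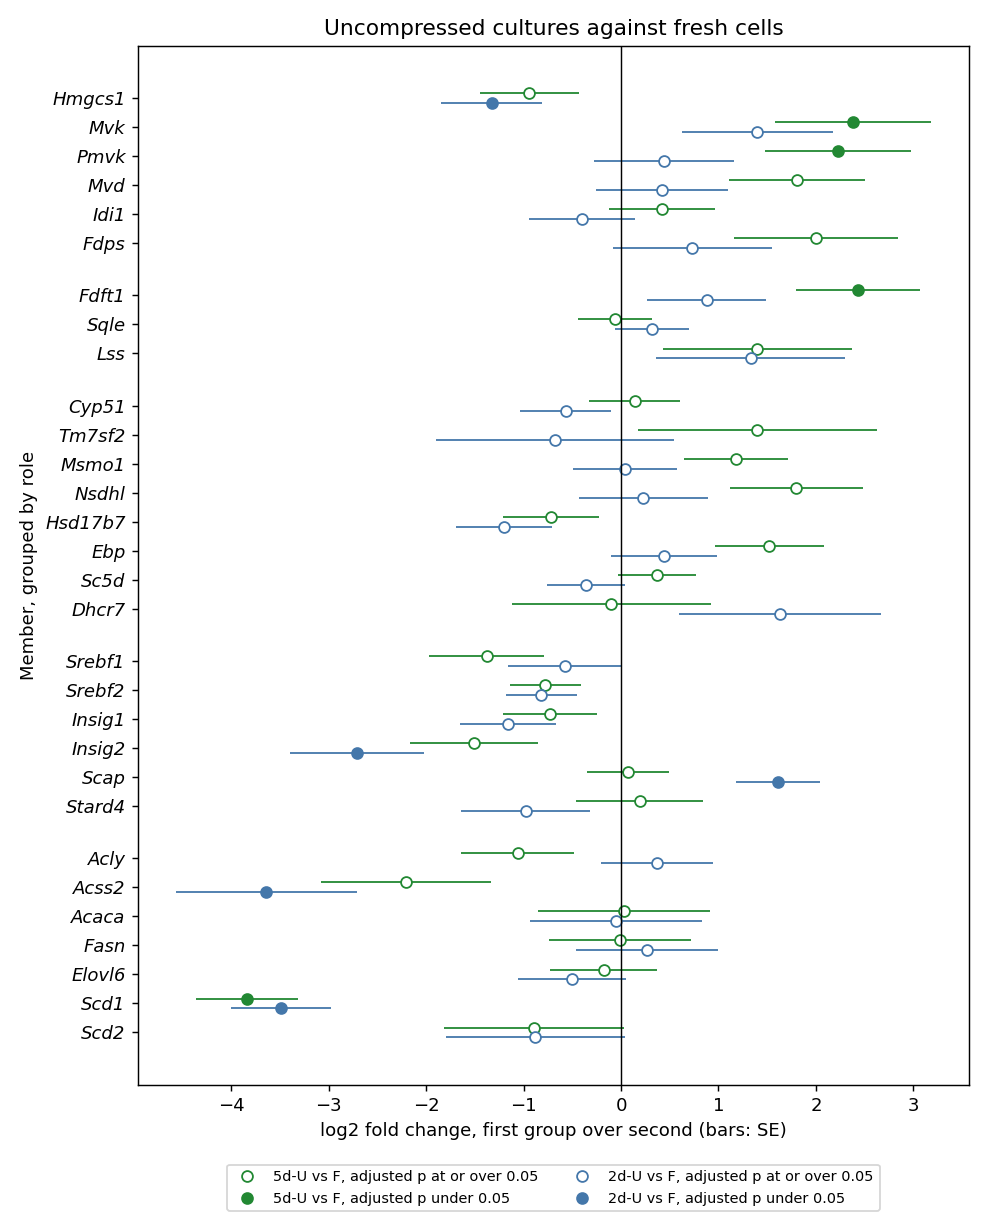
Log2 fold change (points) with its SE (bars) of each member in 5d-U against F (green) and 2d-U against F (blue), grouped by role, with filled points where the edgeR adjusted p was under 0.05. Scd1 lies at -3.84 and -3.49, and Mvk, Pmvk and Fdft1 are filled on the right in 5d-U.

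Between the cultures of different length no member was called. In 5d-U against 2d-U, 0 rose, against 1.87% of all tested genes, and 0 fell, against 0.243%, in edgeR. At an unadjusted p under 0.05, 3 were higher (Pmvk 1.79, Fdft1 1.55, Nsdhl 1.58) and 2 lower (Scap -1.54, Acly -1.43), against 33% and 2.06% of all tested genes, and DESeq2 called 0 higher and 2 lower (Scap and Acly). All 6 mevalonate and isoprenoid enzymes had a positive log2 fold change, from 0.39 to 1.79, and 7 of 8 later sterol enzymes did, with Dhcr7 at -1.73 ± 1.04 (adjusted p = 0.256). Over all tested genes 17850 of 22635 had a positive value and the median was 1.13, beside 0.59 for the members and 0.36 for genes with at least 5 CPM. Acly had 39.9, 35.7 and 46.7 RPKM across 2d-U and 9.46, 28.6 and 7.33 across 5d-U, without overlap (adjusted p = 0.119).

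Ratios within a library do not depend on how libraries are scaled, and 3 pairs of related members, chosen after their values were seen from 5 pairs computed, are given as descriptions. Insig2 over Insig1, the paralogous anchors of SCAP, was 4.49, 7.42 and 4.89 across 2+3d-C. The ratio was 1.77, 0.774 and 1.84 across 5d-U, 0.94, 0.753 and 0.583 across 2d-U, and 6.66, 0.567 and 0.771 across F. F replicate 1 thus stood with the compressed libraries and the other F libraries with 2d-U. Hsd17b7 over Msmo1, which act in the same demethylation, was 1.83, 0.732 and 0.913 across 2+3d-C and 0.681, 0.637 and 1.27 across F, and all 6 uncompressed cultures were lower, at 0.186 to 0.382. Scd1 over Scd2 was 0.933, 2.13 and 37.7 across 2+3d-C and 1.78, 1.07 and 0.767 across F, against 0.0717 to 0.461 in the 6 uncompressed cultures. The 37.7 rested on 642 and 19 reads.

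**Figure D5:**
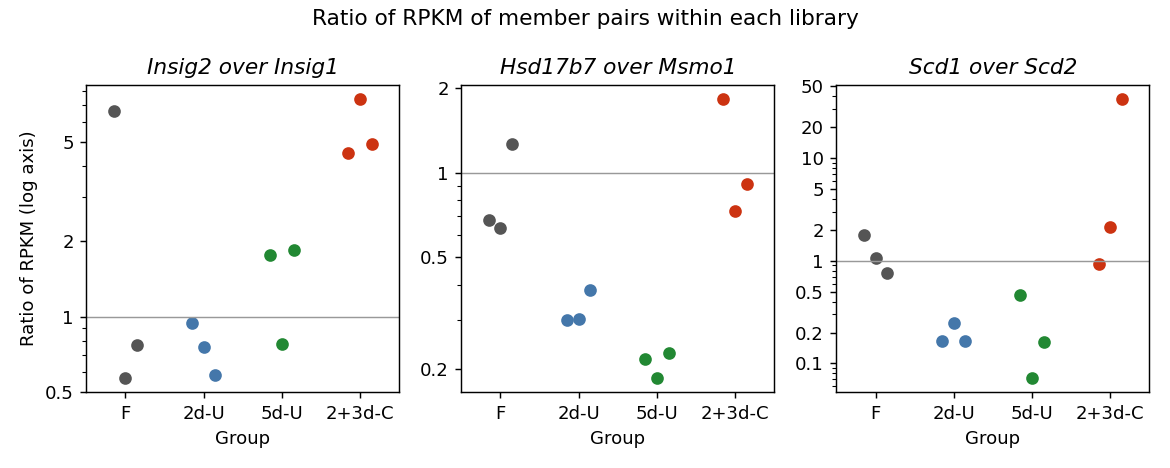
Ratio of RPKM of Insig2 over Insig1, Hsd17b7 over Msmo1 and Scd1 over Scd2 in each library (points, ordered by replicate number), on a log axis with a line at 1. In all 3 panels the 2+3d-C libraries lie above all 2d-U and 5d-U libraries, and for Insig2 over Insig1 a single F library, at 6.66, lies with them.

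Other genes of the pathways were counted from lists that held no member. Of 10 tested genes of other sterol and isoprenoid steps, 0 rose and 0 fell in 2+3d-C against 5d-U in edgeR (median log2 fold change 0.28), and at an unadjusted p under 0.05 there were 1 higher and 1 lower (Pdss2, -2.96). The shares of all tested genes called in that comparison, 9.14% higher and 13.4% lower, also stand beside the counts of the lists that follow, and those in 5d-U against F were 11.6% and 8.9%. Of 21 tested genes of SREBP processing and sterol uptake, 1 rose and 2 fell. Tmem97, a binding partner of the cholesterol transporter NPC1 and a known SREBP target, had 7.81, 11.3 and 9.57 RPKM across F, 99.7, 110 and 102 across 2d-U, 76.8, 105 and 213 across 5d-U and 14.6, 44.5 and 32.2 across 2+3d-C. It fell by 2.11 on the log2 scale in 2+3d-C against 5d-U (adjusted p = 0.00648) and rose by 3.78 in 5d-U against F (adjusted p = 0.000287). Mylip, a ubiquitin ligase for the LDL receptor that LXR induces, rose 8.12-fold in 2+3d-C against 5d-U (adjusted p = 0.0488) and Npc2, which binds cholesterol in lysosomes, fell by 1.30 (adjusted p = 0.0458).

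LXR receptors sense oxidised sterols and induce sterol export. Of 9 tested LXR genes, which include Mylip, 4 rose and 0 fell in 2+3d-C against 5d-U, and 0 rose and 4 fell in 5d-U against F. Apoe, a lipoprotein component, had 588, 260 and 240 RPKM across F, 3.05, 2.84 and 2.19 across 2d-U, 6.67, 0.62 and 4.26 across 5d-U, and 595, 1860 and 1080 across 2+3d-C. It rose by 8.26 ± 0.895 on the log2 scale against 5d-U (adjusted p = 3.35e-05), and fell by 6.56 in 5d-U against F (adjusted p = 0.000165). Abca1, the sterol exporter, had 3.77, 2.69 and 6.36 RPKM across F, no read in 2d-U, at most 0.085 RPKM across 5d-U, and 2, 0.338 and 0.679 across 2+3d-C (4.17 ± 1.16 against 5d-U, adjusted p = 0.0216). Other cells of muscle also express Apoe and Abca1. Apoe was highest in 2+3d-C, whereas Abca1, like the endothelial and glial sums, was highest in F, and the part of these cells was not tested. Nr1h2, which encodes LXR beta, rose 2.55-fold (adjusted p = 0.0118).

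Of 35 tested genes of other fatty acid steps, 2 rose and 5 fell in 2+3d-C against 5d-U (9.14% and 13.4% of all tested genes), and 7 rose and 3 fell in 5d-U against F (11.6% and 8.9%). Me1, the malic enzyme that supplies NADPH, fell 5.29-fold (adjusted p = 0.00257), Hacd1, a dehydratase of long-chain elongation that is abundant in muscle, fell 8.49-fold (adjusted p = 0.00528), and Mlxipl, which encodes ChREBP, rose 47.3-fold (adjusted p = 0.00614), all against 5d-U. Mlxipl had 0.188, 0.0126 and 0.15 RPKM across 5d-U and 7.16, 5.34 and 4.08 across 2+3d-C. Of 26 tested genes of fatty acid oxidation, 3 rose and 4 fell. Echs1, the enoyl-CoA hydratase, fell 5.58-fold (adjusted p = 0.00114), and Acadvl, the very long chain acyl-CoA dehydrogenase, had 16.4, 27.4 and 23.6 RPKM across 5d-U and 51.9, 72.1 and 67.5 across 2+3d-C (2.84-fold, adjusted p = 0.00777). Of 12 proliferation markers 11 fell in 2+3d-C against 5d-U, and their CPM summed to 204, 314 and 136 across 2+3d-C, 2330, 3390 and 3830 across 5d-U, 3620, 3340 and 3250 across 2d-U, and 345, 277 and 180 across F.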

How the data were processed

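RNA from 12 samples of mouse MuSCs was reverse-transcribed and amplified with SMART-seq v4 and sequenced from one end. Per the labels and the submitters' processing notes, the authors ran nf-core/rnaseq 1.4.2 on build mm10 with GENCODE vM23 and counted reads per gene without regard to strand with featureCounts 1.6.4, and raw read counts were deposited for 55335 genes. The aligner is not given in the sources used here. Counting without strand lets reads of overlapping genes fall to either or neither, so exon overlap is given for Fdps and for the called members that have any.

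From the counts, 1 edgeR 4.0.16 quasi-likelihood model (R 4.3.3, limma 3.58.1) was fitted to the 4 groups in all 12 libraries, with TMM scaling and the filterByExpr filter, leaving 22635 genes and 8 residual degrees of freedom. Tests were two-sided, p-values were adjusted by Benjamini-Hochberg over all tested genes of a comparison, and an adjusted p under 0.05 was called. Log2 fold changes carry their SE. RPKM used TMM-scaled library sizes and exon length. Every value for a gene with few reads is limited by counting error, and the libraries span 12540745 to 62424851 reads. The procedure was tested on simulated data in which few or no genes differed between groups, unlike in these data. The outcome is not used as support here.

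Any member could be named, and of each other list the 3 genes with the smallest p in 2+3d-C against 5d-U and the 3 in 5d-U against F. Mmab falls outside this rule, and some genes of the other lists are not reported here. The members and all lists were chosen with earlier results of these data known. Alternatives were DESeq2 1.42.0 with its size factors, library sizes without TMM, no filter, genes of at least 5 CPM, subtraction of the read density on silent gene families, fits of the compared groups alone, the replicate number as a block, and leaving out each library. Leaving out the 4 libraries with reads on silent families was added after seeing the data.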

Additional observations from a re-analysis of the deposited data

How the results depend on the processing

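The counts of members called moved by more than 1.5 times in 79 recomputed counts and stayed within that in 161. Of 979 recomputed values of 49 single results 810 kept direction and side of the threshold, 108 lost and 58 gained a call, and 3 changed sign. In the order higher then lower, 2+3d-C against 5d-U gave 5 and 2, against 3 and 1 in the fit of the compared groups alone and 1 and 1 without the 4 libraries with silent-family reads. That alternative was chosen after seeing the data and leaves 1 library each in 5d-U and F, assumed to vary like the other groups. In 2+3d-C against 2d-U (5 and 1), 3 rose without TMM and in the compared groups alone, and 2 fell with DESeq2, without TMM and without the filter. In 2+3d-C against F (0 and 1), 2 fell with DESeq2, without TMM, without the filter and over genes of at least 5 CPM, and 0 fell in the compared groups alone and without the 4 libraries. In 5d-U against 2d-U (0 and 0), 2 fell with DESeq2 and 1 without the filter and in the compared groups alone. In 5d-U against F (3 and 1), 1 rose without TMM, over genes of at least 5 CPM and after subtraction, 6 in the compared groups alone and 0 without the 4 libraries, while 9 fell with DESeq2, 6 over genes of at least 5 CPM, 2 without TMM, without the filter, in the compared groups alone and after subtraction, and 0 without the 4 libraries. In 2d-U against F (1 and 4), 4 rose in the compared groups alone and 0 without the 4 libraries, while 7 fell with DESeq2 and over genes of at least 5 CPM, 9 in the compared groups alone and 2 without the 4 libraries. The cause was not tested.

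Leaving out 1 library gave 2 to 6 higher and 1 to 3 lower in 2+3d-C against 5d-U, and the same ranges, 2 to 6 and 1 to 3, against 2d-U. It gave 0 to 1 and 0 to 2 in 2+3d-C against F, 0 to 0 and 0 to 1 in 5d-U against 2d-U, 0 to 6 and 1 to 3 in 5d-U against F, and 1 to 3 and 2 to 6 in 2d-U against F. Insig2 in 5d-U against F was -1.51, lay between -1.93 (without F replicate 4) and 0.26 when a library was left out, and changed sign only without F replicate 1. Same-numbered libraries of different groups did not deviate together (correlations of -0.42 to 0.03), so the numbers were not taken to pair them. With the replicate block, which leaves 2 residual degrees of freedom, 2 rose and 1 fell in 2+3d-C against 5d-U, 2 rose against 2d-U, 1 rose and 3 fell against F, 0 rose and 2 fell in 5d-U against F, and 0 rose in 2d-U against F. Under the block Srebf1 was at 0.52 (adjusted p = 0.833) in 2+3d-C against 5d-U, and Insig2 was at 6.08 there, against 2.56 without it, and at 6.81 against 2d-U, against 3.76. Under the block Ebp was at -0.10 and Msmo1 at -0.47 in 5d-U against F, with the sign changed. Scaling moved the median of genes of at least 5 CPM by -0.41 (DESeq2, 5d-U against F) to 0.17 and by -0.58 (without TMM, 2+3d-C against 2d-U) to 0.12. The member median of 2+3d-C against 2d-U went from 0.13 to -0.50 without TMM. Relative to the median of genes of at least 5 CPM, the members' median stayed between -0.38 and -0.32 in 2+3d-C against 5d-U over the 3 scalings.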
